A study of Mus musculus with 28 samples.

Results

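The microRNA miR-140 was followed through both of its arms, mmu-miR-140-3p and mmu-miR-140-5p, which are 2 of the 569 microRNA rows deposited for 28 one-colour Agilent mouse arrays. The members were taken by name. The arrays compared osteoarthritis after destabilisation of the medial meniscus (DMM), in which the ligament holding the meniscus is cut, with a sham operation that exposed the ligament and left it intact. All mice were male, of strain C57BL6, operated on both knees at 10 to 12 weeks of age, and killed 1 or 6 weeks later. Cartilage or subchondral bone of the medial tibial plateau was laser-microdissected from 10 µm sections, and 70 ng of RNA per array was labelled. The 8 groups were sham and DMM at 1 and at 6 weeks in each tissue. A cartilage group held 3 arrays, each of RNA pooled from 3 mice, and a bone group held 4 arrays of single mice, so the spread between cartilage arrays was a spread between pools. No genetic change was labelled for any group.

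MicroRNAs are cut from a hairpin precursor, and each arm of the hairpin can be loaded into the silencing complex, where its seed, bases 2 to 8, pairs with target mRNAs. miR-140 is known as a microRNA of cartilage: its hairpin lies in an intron of Wwp2, a gene for a ubiquitin ligase, and SOX9, the transcription factor of chondrocytes, drives its expression. Mice without it have short bones and develop osteoarthritis-like cartilage loss, and the 5p arm is known to repress Adamts5, an enzyme that cleaves aggrecan. Because the arms have different seeds, they have largely different targets.

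The 3p arm and the precursor are printed to show the seed and where the arm sits in the hairpin. Both come from RefSeq on build GRCm38.p6, plus strand, the 3p arm at chr8:107551288-107551308 and the hairpin at chr8:107551244-107551313, within the span of Wwp2. Capitals mark the seed in the first sequence and the 3p arm in the second.
mmu-miR-140-3p: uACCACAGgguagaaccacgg
Mir140 hairpin: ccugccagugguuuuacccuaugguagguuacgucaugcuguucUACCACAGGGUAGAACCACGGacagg
The 3p arm filled bases 45 to 65 of the 70-base hairpin, and in the minimum free energy fold 20 of its 21 bases were paired, 6 of the 7 seed bases among them, with partners between hairpin bases 5 and 26. Among the 1679 mature names in the RefSeq table, 1 other, mmu-miR-497b, carried the seed ACCACAG. It was not among the deposited rows, of which 466 of 569 matched the table by name. mmu-miR-140-5p is described here by name and signal.

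The tissue of each array was read from its source label, since another label field of the cartilage arrays names subchondral bone. The markers bore out the source labels without using miR-140. miR-455-3p and miR-455-5p, from a cartilage-enriched microRNA gene, had a summed log2 signal of 8.61 to 9.39 on the cartilage arrays, against 5.03 to 6.36 on the bone arrays, where only the 3p arm had values. Erythroid microRNAs summed to 7.41 to 10.18 in cartilage (2 of 4 measured) and 11.09 to 13.56 in bone (4 of 4). Leukocyte microRNAs summed to 8.00 to 9.79 in cartilage (3 of 5 measured) and 12.27 to 14.39 in bone (5 of 5), so the bone samples carried blood-cell and marrow microRNAs. Each array's median lay between 6.17 and 6.39 on the deposited log2 scale and its brightest row between 15.90 and 16.74. Tests ran over the 438 rows with values on every cartilage array or the 490 with values on every bone array, and both arms had a value on every array.

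In cartilage, miR-140-3p was among the brightest microRNAs on every array. Its log2 signal was 13.57, 13.40 and 13.74 in the sham group at 1 week and 13.51, 13.32 and 13.24 after DMM at 1 week. At 6 weeks it was 13.52, 13.53 and 13.51 after sham and 13.12, 13.13 and 13.31 after DMM. The DMM arrays overlapped the sham arrays at 1 week, and all 3 lay below all 3 sham arrays at 6 weeks. The group means were 13.57 ± 0.17, 13.36 ± 0.14, 13.52 ± 0.0088 and 13.18 ± 0.11 (SD, n = 3) in the same order. By rank within an array, the 3p arm stood between place 4 and place 7 of 438 rows.

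The 5p arm read lower than the 3p arm on every array. It read 12.03, 12.07 and 12.23 after sham and 12.18, 11.72 and 11.62 after DMM at 1 week. At 6 weeks the values were 12.20, 12.01 and 12.00 after sham and 11.61, 11.75 and 11.95 after DMM. As for the 3p arm, the groups overlapped at 1 week, where the first DMM array was as high as the sham arrays, and were separate at 6 weeks. The means were 12.11 ± 0.11, 11.84 ± 0.29, 12.07 ± 0.11 and 11.77 ± 0.17 (SD, n = 3), and the rank within an array was 12 to 15.

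In subchondral bone, miR-140-3p was lower on every array than on any cartilage array. Its log2 signal was 9.04, 9.82, 9.56 and 9.98 after sham and 9.92, 9.32, 9.28 and 9.12 after DMM at 1 week. At 6 weeks it was 9.25, 9.18, 9.08 and 9.39 after sham and 8.94, 8.96, 9.36 and 9.27 after DMM. Sham and DMM overlapped at both times. The means were 9.60 ± 0.41, 9.41 ± 0.35, 9.22 ± 0.13 and 9.13 ± 0.21 (SD, n = 4), and the rank within an array was 32 to 62 of 490.

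miR-140-5p spread more widely in bone. It read 7.51, 8.72, 8.40 and 9.76 after sham and 8.99, 8.15, 7.84 and 7.91 after DMM at 1 week. At 6 weeks it read 8.31, 8.12, 7.85 and 7.97 after sham and 7.95, 8.08, 7.84 and 7.90 after DMM. The sham group at 1 week held both the lowest and the highest bone value, and its replicate 4 at 9.76 was followed by a DMM array of the same week at 8.99. The means were 8.60 ± 0.93, 8.22 ± 0.53, 8.06 ± 0.20 and 7.94 ± 0.10 (SD, n = 4), and the rank within an array was 50 to 121.

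**Figure D1:**
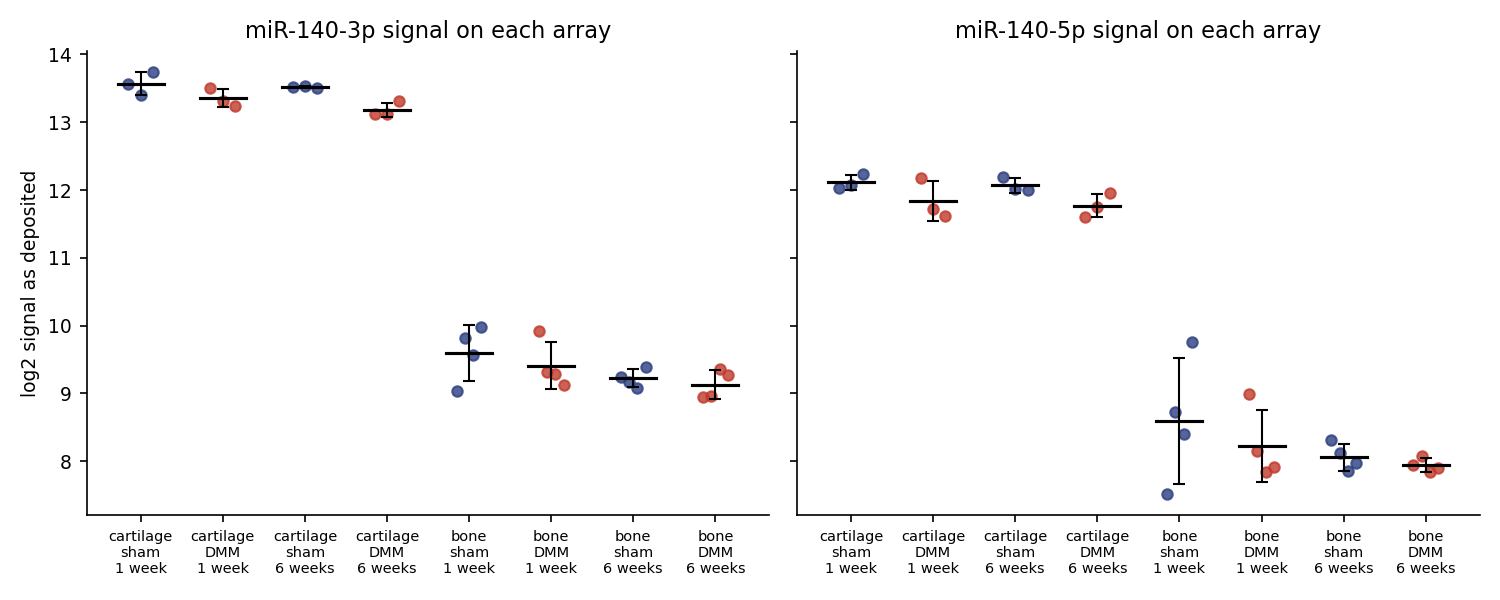
Deposited log2 signal of miR-140-3p (left) and miR-140-5p (right) on each array, by tissue, operation and week. Points are arrays (3 per cartilage group, 4 per bone group), bars are group means and whiskers 1 SD. Every cartilage array lies above every bone array for both arms, and at 6 weeks the cartilage DMM arrays lie below the sham arrays.

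Both arms put the 8 groups in one order: cartilage sham at 1 week, cartilage sham at 6 weeks, cartilage DMM at 1 week, cartilage DMM at 6 weeks, then bone sham at 1 week, bone DMM at 1 week, bone sham at 6 weeks and bone DMM at 6 weeks. The step from the lowest cartilage group to the highest bone group was 3.58 for the 3p arm and 3.17 for the 5p arm, and no array crossed it. Every other pair of neighbours overlapped in range, except that the 3p values of cartilage sham at 6 weeks and cartilage DMM at 1 week met without overlap, at 13.51 on both sides, with a gap between means of 0.16 against a larger SD of 0.14. The spread within groups was not tested between the arms. The pooled SD within groups of the 3p arm in cartilage was 0.12, at percentile 22 of all rows, against 0.19 for the 5p arm, at percentile 57.9. In bone it was 0.30 (percentile 42.1) against 0.55 (percentile 86.0), with 5p SDs of 0.93 and 0.53 in the 1-week groups. The order turned in cartilage sham at 1 week (0.17 for the 3p arm, 0.11 for the 5p arm) and in bone DMM at 6 weeks (0.21 and 0.10).

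Averaged over groups, the 3p signal was 4.07 log2 units higher in cartilage than in bone, 16.7-fold, and the 5p signal 3.74 higher, 13.4-fold. Among the 359 rows measured in both tissues these ranked 2 and 3 among all differences, against a median of -0.060. No test is attached to them, because miR-140 was chosen as a cartilage microRNA and the deposited rows do not say how the tissues were scaled to each other. Centring each array on its 75th percentile gave 4.42 and 4.10, and quantile normalization gave 3.70 and 3.59, with the same ranks. The difference stood in each matched pair of groups: for the 3p arm it was 3.97 after sham and 3.95 after DMM at 1 week, and 4.30 and 4.05 at 6 weeks. For the 5p arm the same comparisons gave 3.51, 3.62, 4.01 and 3.83. In these dissected samples, fewer cells of a type and less RNA per cell cannot be told apart.

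The main comparison asked whether the arms changed after DMM. In cartilage both fell modestly over the mean of the weeks: the 3p arm to 0.827-fold of sham, a log2 change of -0.27 ± 0.08 (SE; 95% interval -0.45 to -0.10; 6 DMM and 6 sham arrays; adjusted p = 0.0146, limma with Benjamini-Hochberg adjustment over all 438 rows), and the 5p arm to 0.820-fold, -0.29 ± 0.10 (-0.51 to -0.06; adjusted p = 0.0402). Such a change was common: 45.2% of all rows passed in the same comparison (198 of 438, 93 higher and 105 lower). In rank, the arms stood at percentiles 24.8 and 24.1 of all log2 changes, whose median was -0.033. The 3p call was kept without any 1 of the 12 arrays (adjusted p 0.00870 to 0.0401) and lost under quantile normalization, where the change was -0.06 (adjusted p = 0.553). That setting fixes a value by its rank within the array. The 3p arm held ranks 4 to 7 and the 5p arm ranks 12 to 15, and the cause of the lost 3p call was not tested. The 5p call was lost without any 1 of 10 of the 12 arrays (adjusted p up to 0.105 over all 12) and kept under quantile normalization at -0.26 (adjusted p = 0.0369).

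Taken week by week, neither arm passed the test. At 1 week in cartilage the 3p arm changed by -0.21 ± 0.11 (SE; -0.46 to 0.04; limma adjusted p = 0.186) and the 5p arm by -0.27 ± 0.15 (-0.59 to 0.05; adjusted p = 0.187), where 27.9% of rows passed. The 5p arm passed without the first DMM array of that week (-0.44, limma adjusted p = 0.0280), where 125 of 438 rows passed. At 6 weeks the 3p arm stood at 0.792-fold of sham, -0.34 ± 0.11 (-0.58 to -0.09; adjusted p = 0.0558), and the 5p arm at -0.30 ± 0.15 (-0.62 to 0.02; adjusted p = 0.156), where 16.9% of rows passed. The complete separation of DMM below sham that both arms showed at 6 weeks was shared by 79 of 438 rows, 18.0%. The 6-week 3p value passed under a trended, robust prior (limma adjusted p = 0.0424), with array weights (0.0186), and without the third DMM array of that week (-0.40, adjusted p = 0.0439). Of all 438 rows, 75, 189 (43.2%) and 92 passed in those settings, in that order. Quantile normalization, which fixes values by rank, took it to -0.10 (limma adjusted p = 0.523).

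The DMM change did not differ detectably between the weeks. Its 6-week value minus its 1-week value was -0.13 ± 0.16 (SE) for the 3p arm and -0.03 ± 0.21 for the 5p arm (limma adjusted p = 0.999 for both), and 0% of rows passed, with 13 rows at an unadjusted p under 0.05. Between the sham groups, 6 weeks minus 1 week gave -0.05 ± 0.11 and -0.04 ± 0.15 (adjusted p = 0.945 and 0.985), where 0.228% of rows passed.

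Some markers of other cells moved with the 6-week comparison in cartilage, in which 32 of all 438 rows were lower and 42 higher (16.9% passed). The summed leukocyte signal was 8.00 to 8.52 after DMM and 8.64 to 9.79 after sham, and 2 of the 3 measured members fell. The erythroid sum was 7.75 to 8.55 after DMM and 8.50 to 10.18 after sham, and both measured members fell. The mesenchymal list, 4 of 6 measured, summed to 9.96 to 10.70 after DMM and 10.67 to 10.90 after sham. The muscle list, measured in full, ran from 7.61 to 9.27 against 7.75 to 8.57, and 1 of its 4 members rose, mmu-miR-206-3p (0.53, limma adjusted p = 0.0166). The 1 measured endothelial row ran from 5.20 to 6.30 against 5.93 to 7.18. No measured mesenchymal or endothelial member passed. Between the sham groups, 6 weeks minus 1 week, the median change was 0.83 for the leukocyte list and 1.04 for the erythroid list, with no member passing. The part of any of these markers in the miR-140 values was not tested. At 1 week the leukocyte sums overlapped, at 8.21 to 8.69 after DMM and 8.27 to 8.78 after sham, as did the erythroid sums at 7.58 to 7.99 and 7.41 to 8.27. The muscle sum was 7.51 to 7.82 after DMM and 7.76 to 8.82 after sham at 1 week, with a median change of -0.75 over its 4 members, of which mmu-miR-206-3p rose (0.53, limma adjusted p = 0.0107) and the others did not pass. The mesenchymal sum was 10.23 to 10.84 after DMM and 10.71 to 10.83 after sham, and 1 of its 4 measured members rose, mmu-miR-214-5p (0.53, adjusted p = 0.0142). The endothelial row ran from 5.36 to 7.24 after DMM and from 5.82 to 6.37 after sham. At 1 week 27.9% of all rows passed.

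In bone no change was detected for either arm. At 1 week DMM minus sham was -0.19 ± 0.21 (SE; -0.64 to 0.26) for the 3p arm and -0.38 ± 0.35 (-1.12 to 0.37) for the 5p arm, with limma adjusted p = 0.999 for both. Without replicate 4 of the 1-week sham group these became -0.06 and 0.0099. At 6 weeks the changes were -0.09 ± 0.21 (-0.54 to 0.36) and -0.12 ± 0.35 (-0.87 to 0.63), adjusted p = 0.998 for both. Over the mean of the weeks they were -0.14 ± 0.15 and -0.25 ± 0.25 (adjusted p = 0.998), and -0.08 and -0.06 without that replicate. The intervals were wide enough to hold the cartilage changes. limma called 0% of the 490 rows at 1 week, at 6 weeks and over both, with 3, 2 and 2 rows at an unadjusted p under 0.05. Array weights were an alternative whose estimation did not converge in bone. With them both arms passed at 1 week (-0.53 and -0.73, limma adjusted p = 0.0336 for both), where 38 of 490 rows passed (7.76%). Both arms also passed over both weeks (-0.29 and -0.44, limma adjusted p = 0.0267 and 0.0237), where 182 of 490 rows passed (37.1%). Centring on the 75th percentile moved the median of all bone rows at 1 week from -0.056 to 0.084.

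The change from 1 to 6 weeks in the bone DMM effect was 0.10 ± 0.30 (SE) and 0.26 ± 0.50 (limma adjusted p = 1.00 for both; 0% of rows passed, 1 at an unadjusted p under 0.05), and both turned negative without replicate 4 of the 1-week sham group. The bone sham groups differed between weeks by -0.38 ± 0.21 and -0.54 ± 0.35 (adjusted p = 0.414 and 0.475; 0% of rows passed, 54 at an unadjusted p under 0.05). With array weights those reached -0.44 and -0.66 (limma adjusted p = 0.0348 and 0.0295), where 140 of 490 rows passed (28.6%).

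Whether the DMM change differed between tissues was tested directly over the 359 shared rows. Cartilage minus bone was -0.02 ± 0.27 (SE) for the 3p arm and 0.11 ± 0.45 for the 5p arm at 1 week (limma adjusted p = 0.982 for both; 0.279% of rows passed). At 6 weeks it was -0.25 ± 0.27 and -0.18 ± 0.45 (adjusted p = 0.952 and 0.973; 0.557% of rows passed). No difference between the tissues was detected at either week. For the mean of both weeks, where the cartilage calls were made, the difference between tissues was not tested. A call in cartilage and none in bone is not by itself a difference between the tissues.

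**Figure D2:**
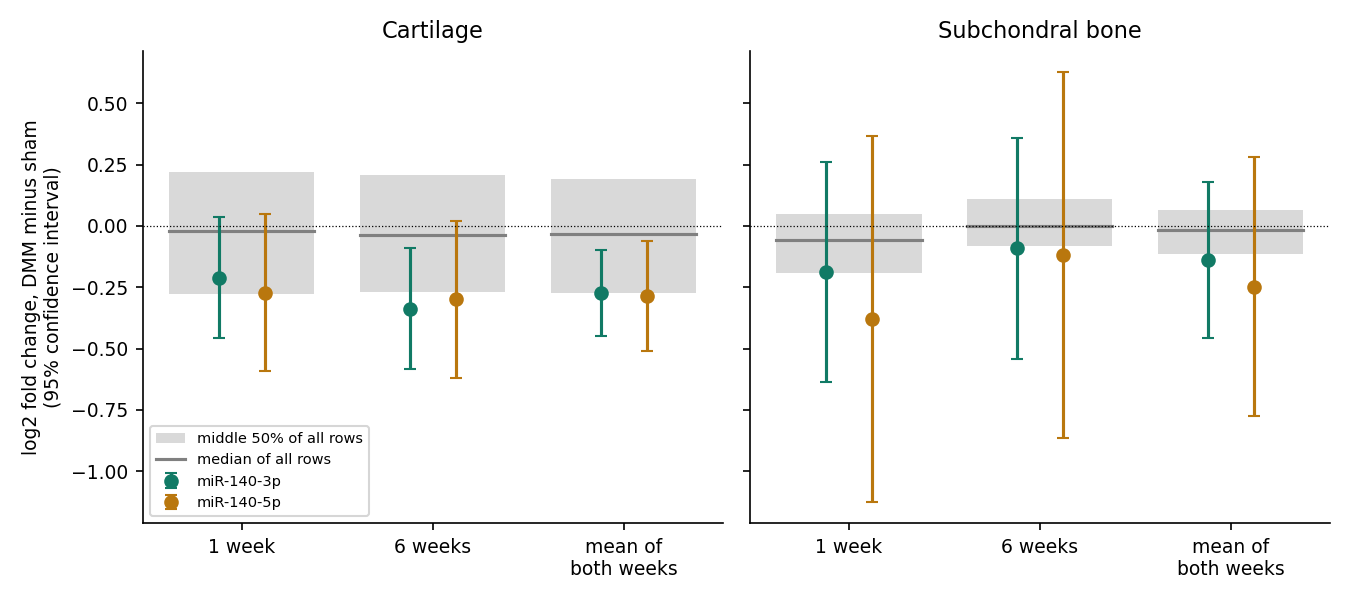
Log2 change of each arm after DMM against sham, with its 95% confidence interval, at 1 week, at 6 weeks and over their mean, in cartilage (left) and bone (right). The grey band spans the middle 50% of all rows and the grey line is their median. In cartilage both arms lie at or just below the lower edge of the band except the 3p arm at 1 week, and the bone intervals all cross 0.

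Each array also gives the balance of the arms, as the 3p minus the 5p log2 signal. Its size depends on how well each probe binds and is not a ratio of molecules, so only its change between arrays is read. In cartilage it was 1.54, 1.32 and 1.51 after sham and 1.33, 1.60 and 1.62 after DMM at 1 week, and 1.33, 1.52 and 1.51 against 1.51, 1.37 and 1.36 at 6 weeks. All 12 values lay within 1.32 to 1.62. DMM minus sham was 0.06 ± 0.11 (SE) at 1 week (p = 0.5, exact two-sided permutation test, smallest possible 0.1) and -0.04 ± 0.08 at 6 weeks (p = 0.8, exact permutation, smallest possible 0.1). With both weeks together it was 0.01 ± 0.07 (exact permutation within weeks, p = 0.89, smallest possible 0.005). Under quantile normalization it was 0.31 at 1 week (exact permutation p = 0.2), 0.082 at 6 weeks (exact permutation p = 0.7) and 0.20 over both (exact permutation p = 0.1). No shift in the balance of the arms after DMM was detected in cartilage, and at both weeks the ranges of sham and DMM overlapped.

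In bone the arm difference ranged from 0.22 to 1.52. It was 1.52, 1.10, 1.17 and 0.22 after sham and 0.93, 1.17, 1.45 and 1.21 after DMM at 1 week. At 6 weeks it was 0.93, 1.06, 1.23 and 1.42 after sham and 0.99, 0.87, 1.52 and 1.37 after DMM. The value of 0.22 belonged to replicate 4 of the 1-week sham group, the array with the highest 5p signal. DMM minus sham over both weeks was 0.11 ± 0.18 (SE; exact permutation within weeks, two-sided p = 0.578), and -0.02 without that array.

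The arm difference was larger in cartilage than in bone. It averaged 1.46 ± 0.11 (SD, n = 12) in cartilage and 1.14 ± 0.32 (SD, n = 16) in bone, a difference of 0.32 ± 0.09 (SE; two-sided permutation p = 0.00207, 100000 resamples). Without replicate 4 of the 1-week sham group it was 0.26 (permutation p = 0.00228), and leaving out any single array gave 0.26 to 0.37 (permutation p 0.00052 to 0.00876). Within matched groups it was 0.45 for sham at 1 week, 0.29 for sham at 6 weeks, 0.33 for DMM at 1 week and 0.22 for DMM at 6 weeks. The ranges of the tissues overlapped in each, and no matched group passed alone (exact permutation p = 0.171, 0.114, 0.0857 and 0.371; smallest possible 0.0286). The tissues also differed in signal level and in pooling, so these cannot be told apart from tissue here.

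**Figure D3:**
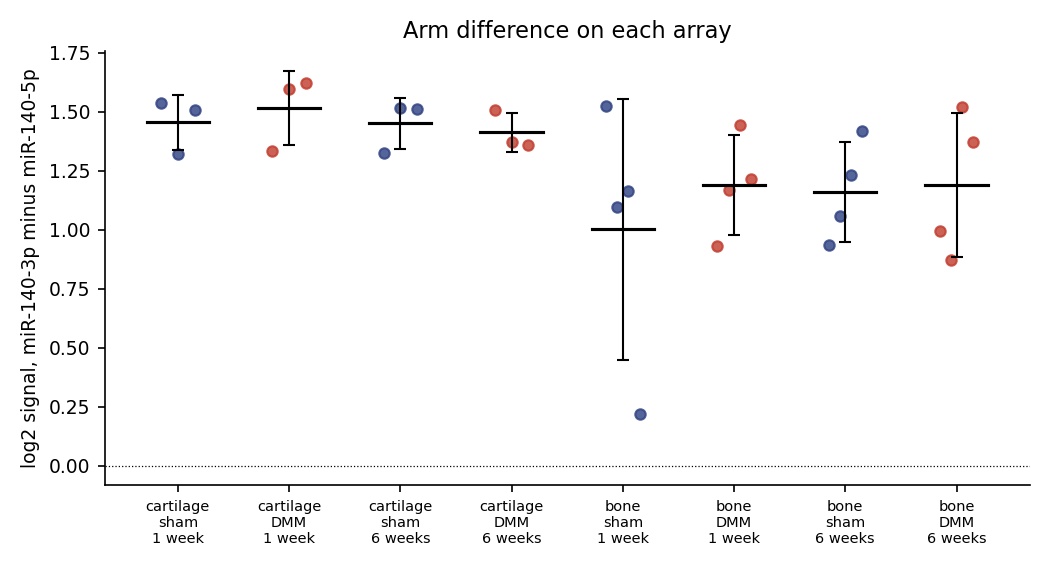
The miR-140-3p minus miR-140-5p log2 signal on each array, by group. Points are arrays, bars are group means and whiskers 1 SD; the dotted line is 0. The 12 cartilage arrays stay between 1.32 and 1.62, and the bone arrays run from 0.22 to 1.52.

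The arms' signals were correlated from array to array on the deposited scale, though not under every alternative. After each group's mean was removed, their deviations correlated across the 12 cartilage arrays with Pearson r = 0.777 (permutation within groups, p = 0.0146, adjusted 0.0146) and Spearman rho = 0.678 (p = 0.0468, adjusted 0.0468). Across the 16 bone arrays r was 0.812 (p = 0.00842, adjusted 0.0112) and rho 0.579 (p = 0.044, adjusted 0.0468). Without the 2 arrays farthest from the median, r was 0.615 in cartilage and 0.673 in bone. Before group means were removed, r was 0.869 and 0.851, and the adjustment covers these 4 relations. In cartilage the test was not passed without any 1 of the 3 DMM arrays of 1 week (r 0.678 to 0.776, permutation p 0.0608 to 0.0698). Under quantile normalization r was 0.254 (permutation p = 1), but the test could not decide there, because that setting fixes a value by its rank. At 6 weeks the 3p arm held rank 5 on all 3 sham arrays, and the 5p arm rank 14 on all 3 DMM arrays. Such ties left too few different arrangements for the test to pass. In bone it was not passed without replicate 1 of the 1-week DMM group (r = 0.751, permutation p = 0.0842; rho = 0.339). All points of a tissue shared the arrays' scaling.

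**Figure D4:**
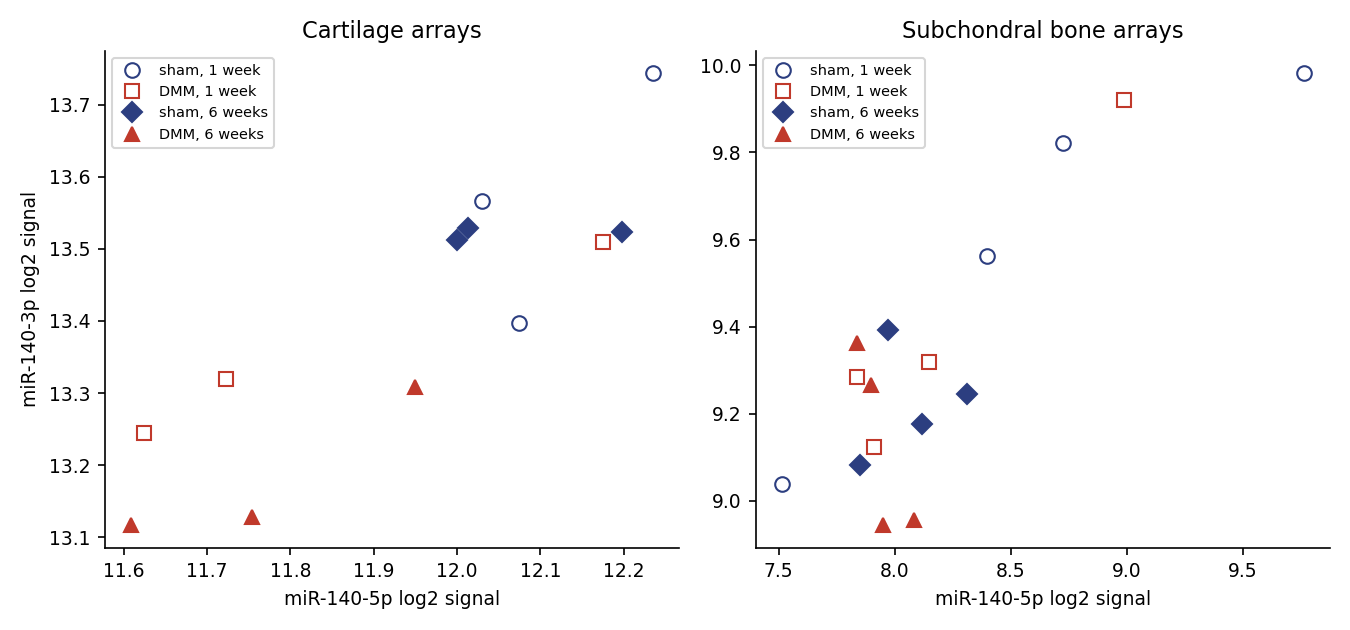
miR-140-3p against miR-140-5p log2 signal on each cartilage (left) and bone (right) array, with operation and week marked. In cartilage the DMM arrays fill the lower left and the sham arrays the upper right, except 1 DMM array at 1 week. In bone, 3 arrays from 1 week, of sham and DMM, lie at the upper right, at 3p signals of 9.82 to 9.98.

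The rows nearest to each arm were listed within each tissue, and the lists were not tested against each other, since not every row had values in both tissues. As a description over the 12 cartilage arrays, the rows nearest to the 3p arm were miR-146b-5p (r = 0.910), miR-107-3p (0.879), miR-300-3p (0.873), miR-410-3p (0.872) and miR-376b-5p (0.862), with the 5p arm itself at rank 5 of all rows, at 0.869. The 5p arm had the 3p arm as its nearest row, then miR-199b-5p (0.863), miR-130a-3p (0.860), miR-199a-3p (0.856), miR-497a-5p (0.843) and miR-146b-5p (0.838). Before group means were removed, the other cartilage-enriched pair had lower r. miR-455-3p had r = 0.246 with the 3p arm and 0.429 with the 5p arm, and miR-455-5p 0.556 and 0.602. The median r of all rows was 0.092 and 0.073. After group means were removed, miR-455-5p had r = 0.858 with the 3p arm, against 0.777 between the arms, and 0.602 with the 5p arm. miR-455-3p then had r = 0.145 and 0.321.

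In bone the nearest rows to the 3p arm were miR-23a-3p (r = 0.940), miR-23b-3p (0.895), miR-100-5p (0.876), miR-99a-5p (0.874) and miR-10b-5p (0.857). Those nearest to the 5p arm were miR-30a-5p (0.966), miR-29c-3p (0.966), miR-218-5p (0.956), miR-29b-3p (0.953) and miR-101a-3p (0.951). There the 5p arm was at rank 6 of the rows nearest to the 3p arm, while the 3p arm was at rank 61 of 489 for the 5p arm. Rows with r above 0.8 numbered 13 for the 3p arm and 87 for the 5p arm in bone, with 12 in common (92.3% and 13.8% of each list). In cartilage they numbered 20 and 6, with 5 in common (25% and 83.3%). miR-146b-5p and miR-107-3p, near the 3p arm in cartilage, had r = 0.702 and 0.646 with the 3p arm and 0.886 and 0.905 with the 5p arm in bone. These correlations share the arrays and their scaling. The bone values include replicate 4 of the 1-week sham group, which had the highest 5p signal (9.76) and the highest array median (6.39) in bone. The nearest rows and the counts are not given without that array, so the counts are not read as a property of the arms.

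Marker sums were set against the arms as deviations from group means, with 24 relations adjusted together. In bone the 5p arm correlated with the endothelial list, the arms of miR-126a, at r = 0.927 (rho 0.812; permutation within groups, p = 0.00011, adjusted 0.00264) and with the mesenchymal list at r = 0.889 (rho 0.797; p = 0.0009, adjusted 0.0108). The 3p arm correlated with the mesenchymal list at r = 0.796 (p = 0.00588, adjusted 0.047), though its rho of 0.671 did not pass (adjusted 0.0722), and with the endothelial list at 0.653 (p = 0.0676, adjusted 0.244). Without the 2 arrays farthest from the median of each list sum, r for the 5p arm was 0.806 with the endothelial list and 0.764 with the mesenchymal list, and r for the 3p arm with the latter was 0.599. Without replicate 4 of the 1-week sham group, r was 0.857 and 0.845 for the 5p arm and 0.743 for the 3p arm in the relations whose r passed. The miR-455 list, with only miR-455-3p measured in bone, had r = 0.531 with the 3p arm (adjusted 0.244) and 0.513 with the 5p arm (adjusted 0.298). The erythroid and leukocyte lists did not pass for either arm in bone (adjusted p of r 0.312 to 0.788), nor did any list in cartilage (0.226 to 0.751). The single muscle row with bone values had r = -0.394 with the 5p arm (adjusted 0.214) and rho = -0.629 (adjusted 0.041). Without replicate 4 of the 1-week sham group these were -0.594 and -0.718. For the lists that did not pass with the 5p arm in bone, r without that replicate was 0.657 (miR-455), 0.076 (erythroid) and 0.183 (leukocyte). High correlations with the 5p arm were common in bone. Before group means were removed, 87 of 488 other rows had r above 0.8 with it. Its correlations with the endothelial and mesenchymal lists are therefore not read as particular to a cell type. The part of the listed cells in the bone signal of miR-140 was not tested further.

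**Figure D5:**
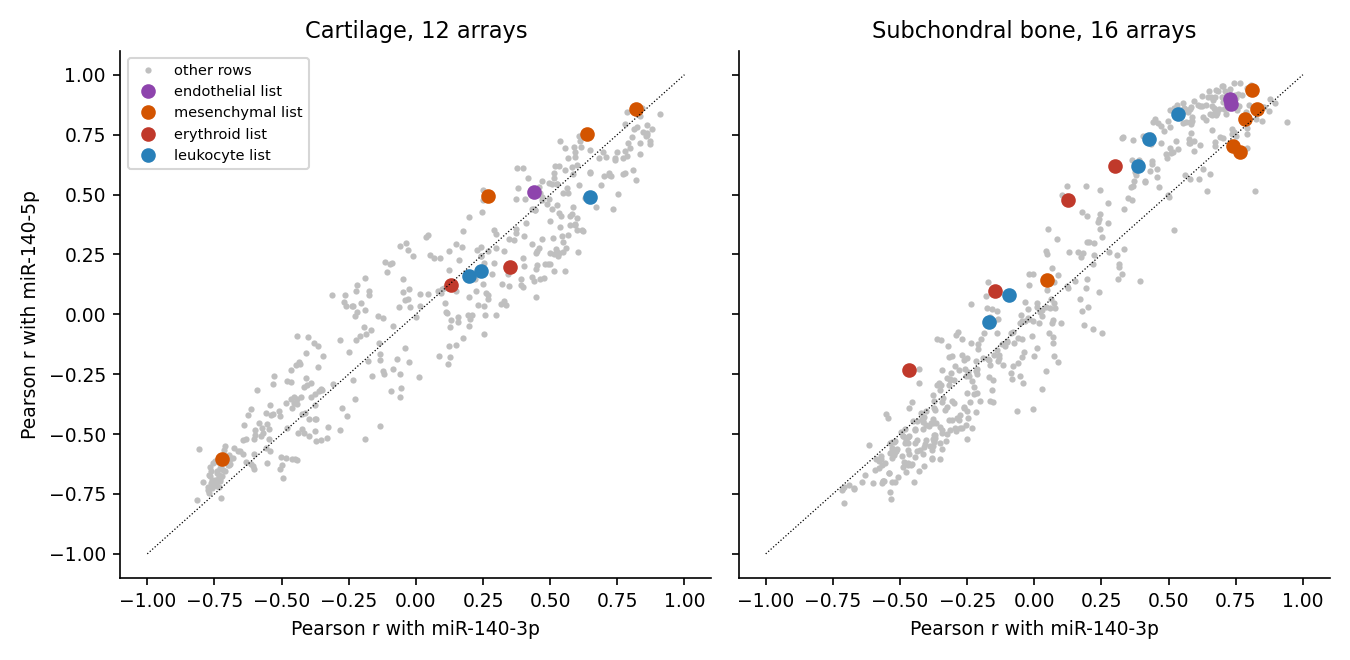
Pearson r of each other row with miR-140-3p (horizontal) against its r with miR-140-5p (vertical), over 12 cartilage arrays (left) and 16 bone arrays (right). Coloured points are marker lists and the dotted line marks equal values. In bone both endothelial rows and 5 of 6 mesenchymal rows lie at the upper right, as do many rows of no list.

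Other cartilage microRNAs set the size of the miR-140 change in context. Of the 4 cartilage-enriched rows, all measured in cartilage, none rose and 2 fell over both weeks, and those were the miR-140 arms. Of all 438 rows, 105 were lower and 93 higher in that comparison (45.2% passed), and the count of 2 in 4 is not read as particular to these rows. miR-455-3p changed by -0.24 (limma adjusted p = 0.137) and miR-455-5p by -0.24 (adjusted p = 0.0563). The pair differed from miR-140 in timing of the values: at 1 week miR-455-5p fell by 0.40 on the log2 scale (adjusted p = 0.0457) and miR-455-3p stood at -0.46 (adjusted p = 0.0726), while at 6 weeks they stood at -0.08 and -0.02. The change between weeks did not pass for either (0.32 and 0.44, adjusted p = 0.999), and its difference from that of miR-140 was not tested.

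Of 15 further microRNAs known from chondrocytes, 10 were measured in cartilage, and over both weeks 3 fell and none rose, against 105 lower and 93 higher of all 438 rows (45.2%). Those 3 were miR-101a-3p (-0.29, limma adjusted p = 0.0155), miR-199a-3p (-0.43, adjusted p = 0.0216), which also belongs to the mesenchymal list, and miR-26a-5p (-0.37, adjusted p = 0.0107). The list's median change was -0.21, against -0.033 for all rows. At 1 week 1 member fell, miR-149-5p (-0.31, adjusted p = 0.0490), where 27.9% of all rows passed, and the list median was -0.31. At 6 weeks none of the 10 passed, where 16.9% of all rows did, and the list median was -0.14. In bone 11 of the 15 were measured, and limma called none in either direction at 1 week, at 6 weeks or over both.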

How the data were processed

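The deposited values are log2 signals per microRNA for 28 one-colour Agilent release-21 arrays. limma 3.20.9 is named per the submitters' processing notes, with no source used here stating the background correction, array normalization or row filter. Rows had values for all arrays of a tissue or none: 438 in cartilage, 490 in bone, 359 in both. Values were used as deposited. Group means were fitted per tissue with limma 3.58.1 (R 4.3.3) and moderated variances over all rows. P-values were Benjamini-Hochberg adjusted over all rows, at 0.05. Changes are log2 differences. Arm differences and correlations used permutation tests (scipy 1.17.1), exact or with 100000 resamples. Pairing by replicate number was checked on deviations from group means in cartilage and was not checked in bone. The hairpin was folded with RNAfold 2.7.2. The number of arrays limits the precision. The labels do not say that bone and cartilage came from different mice, and the tissues were treated as independent. The fit was tested on simulated data. Alternatives were normalization, array weights, prior, groups fitted, rows below the median level left out, a replicate block (cartilage only) and leaving out each array. Named rows were the arms, the rows of the marker lists and, per arm and tissue, the 5 rows nearest by Pearson correlation. The members and lists were chosen with earlier results of these data known.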

Additional observations from a re-analysis of the deposited data

How the results depend on the processing

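Over 657 alternatives to 37 results, 591 kept direction and side of the threshold, 37 changed direction, 17 lost a call, 10 gained one and 2 moved a level. The cause of these changes was not tested. Under quantile normalization the cartilage 3p change over both weeks was -0.059 (adjusted p = 0.553), the 5p change between weeks 0.14, the bone 3p change between weeks -0.0021, the tissue difference of the DMM effect 0.049 (3p, 1 week) and 0.076 (5p, 6 weeks), the 6-week cartilage arm difference after DMM 0.082, the 3p tissue difference in level 3.70 and the cartilage correlation of the arms 0.254. Centring on the 75th percentile gave 0.024 for the cartilage 5p change between weeks, -0.079 for bone 3p, -0.076 for the 5p tissue difference at 1 week and 4.42 for the 3p level. Array weights gave 0.017 for the cartilage 5p change between weeks, -0.35 for cartilage 3p at 6 weeks, and in bone, without convergence, -0.53 and -0.73 (1 week), -0.29 and -0.44 (both weeks) and -0.44 and -0.66 (sham weeks) for 3p and 5p. A trended, robust prior gave -0.34 for cartilage 3p at 6 weeks. Deviations of same-numbered cartilage arrays correlated at -0.487 to 0.443, against -0.545 to 0.583 for different-numbered arrays, and pairing was not tested. A replicate block gave -0.29 (limma adjusted p = 0.0683) for cartilage 5p over both weeks.

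Leaving out each array in turn gave, in cartilage, -0.40 to -0.30 (3p, 6 weeks), -0.44 to -0.16 (5p, 1 week), -0.37 to -0.23 (5p, both weeks), -0.14 to 0.14 (5p, change between weeks), and between sham weeks -0.13 to 0.040 (3p) and -0.11 to 0.018 (5p). In bone it gave -0.74 to 0.0099 (5p, 1 week), and for the change between weeks -0.030 to 0.28 (3p) and -0.13 to 0.62 (5p). For the tissue difference at 1 week it gave -0.15 to 0.17 (3p) and -0.28 to 0.47 (5p). The DMM shift of the arm difference ran from -0.0057 to 0.15 (cartilage, 1 week), -0.022 to 0.057 (cartilage, both), -0.072 to 0.36 (bone, 1 week), -0.083 to 0.13 (bone, 6 weeks) and -0.022 to 0.20 (bone, both). The arm correlation ran from 0.678 to 0.912 in cartilage and 0.679 to 0.859 in bone. Rows called ranged over the alternatives from 42 to 172 (cartilage, 1 week) and 20 to 189 (cartilage, 6 weeks). In cartilage over both weeks they ranged from 110 to 251, and between sham weeks from 0 to 68. The 110 was a count among the 219 brighter rows only. Over all 438 rows the lowest count for both weeks was 171, and the share called ran from 39% to 57.3%. In bone the ranges were 0 to 38, 0 to 54, 0 to 182 and 0 to 140, in the same order. Fitting only the groups compared cannot give a mean or change over both weeks.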
